A study of Drosophila melanogaster with 16 samples.

Results

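The genes described here are the translation initiation factor genes of Drosophila, taken as every gene in the deposited count files whose FlyBase symbol begins with eIF (eukaryotic initiation factor). The rule gave 44 of the 17698 genes in the files, and no measured value entered it. They were followed in RNA from whole central nervous systems (CNS) of late larvae of the third instar raised at 25 °C, with 4 replicates of 20 pooled CNSs in each of 4 genotypes, 16 libraries in all. All genotypes carried nSyb-Gal4, a pan-neuronal driver, and no transgene was expressed in the control (nsybGal4/+). The other genotypes were TFAM overexpression (nsybGal4>UAS-TFAM3M), TFAM overexpression combined with ATF4 RNAi (UAS-TFAM3M and UAS-ATF4 RNAi, both driven by nsybGal4) and the libraries labelled ATF4 overexpression (nsybGal4>UAS-ATF4-HA). The driver acts in neurons, so the CNS also held glia and neuroblasts that should not express the transgenes, and a change confined to neurons would be diluted. In such bulk samples a lower count can come from fewer cells of a type or from less RNA per cell, and these cannot be told apart.

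Translation of most mRNAs starts when the cap-binding protein eIF4E, the scaffold eIF4G and the helicase eIF4A load a small ribosomal subunit carrying eIF3, eIF1, eIF1A and the ternary complex of eIF2, GTP and initiator tRNA. The subunit then scans to a start codon, where eIF5 promotes GTP hydrolysis and eIF5B joins the large subunit. eIF2B recharges eIF2 with GTP, and phosphorylation of the alpha subunit of eIF2 by stress kinases blocks this step, which lowers general translation and favours translation of the ATF4 mRNA (crc in Drosophila). ATF4 in turn activates genes such as Thor, the Drosophila 4E-BP that sequesters eIF4E. The comparisons therefore ask whether mRNAs of the machinery upstream and downstream of ATF4 were altered when mitochondria were stressed by TFAM, when ATF4 was knocked down under that stress, and when an ATF4 transgene was present.

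No initiation factor mRNA was called misregulated in any comparison, while Thor, the inhibitor of the cap-binding factor, was called in 2 of them. Of the 44 genes, 8 encode factors of start codon selection and the ternary complex, 5 the subunits of eIF2B, 16 subunits of eIF3 or their paralogs, 13 factors of cap binding and scanning, and 2 other factors (eIF5B and eIF6). The low-count filter of edgeR kept 35 of them in every comparison and removed 9, namely eIF4B, eIF4H2, eIF4E3, eIF4E4, eIF4E5, eIF4E7, eIF3d2, eIF3f2 and eIF3g2.

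The manipulated genes and the libraries bear on every result below. TFAM was at 97.0 ± 29.7 CPM (counts scaled to the size of the library; mean ± SD, n = 4) in control, 538 ± 118 in TFAM overexpression, 544 ± 123 with ATF4 RNAi added and 79.5 ± 10.3 in the libraries labelled ATF4 overexpression. crc, the ATF4 gene, was at 196, 188, 227 and 202 CPM in the control libraries, 216, 242, 169 and 184 in TFAM overexpression and 148, 157, 165 and 156 with ATF4 RNAi. The last 4 values were below the other 8, but crc was not called lower with ATF4 RNAi than in TFAM overexpression alone (log2 fold change -0.38 ± 0.11, edgeR adjusted p = 0.339, over the alternatives 0.0379 to 0.727). With the ATF4 transgene crc was at 177, 187, 189 and 184 CPM, so its mRNA was not raised in the libraries labelled ATF4 overexpression and the label is used only as a name. Library totals ran from 18215062 to 24778270 counts. Neuron markers (elav, nSyb, brp, Syt1 and Syn) summed to between 1314 and 2826 CPM over all libraries, and glia markers to between 596 and 940 CPM. Fat body markers, of a tissue that adheres to the dissected CNS, summed to between 110 and 462 CPM in control, 53.6 and 96.8 in TFAM overexpression, 41.3 and 142 with ATF4 RNAi and 61.8 and 242 in the libraries labelled ATF4 overexpression, and none of the 5 genes was under 1 CPM in every library. The ranges of control and TFAM overexpression did not overlap, and 1 of the 5 was called lower in TFAM overexpression. Salivary gland markers ran from 0.601 to 197 CPM, with all genotypes overlapping. The part of these differences in the values below was not tested.

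Levels of the members were spread widely, with the core helicase at the top and a minor cap-binding paralog at the bottom. To compare genes, CPM was divided by the exon length in kilobases (CPM per kb), taken over all annotated exons of a gene. A gene with long exons that only some of its transcripts use therefore reads low by this measure. The RNA helicase eIF4A was highest in control at 1162 ± 214 CPM per kb, 2.41-fold above the next member, the start codon factor eIF1 at 482 ± 102. The median of the 35 genes that passed the filter was 166, and the lowest was eIF4E6 at 1.03 ± 0.345. Among all 17560 genes with an exon length, eIF4A ranked 89 and eIF1 147 in control. These are levels of mRNA, and no protein was measured.

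**Figure D1:**
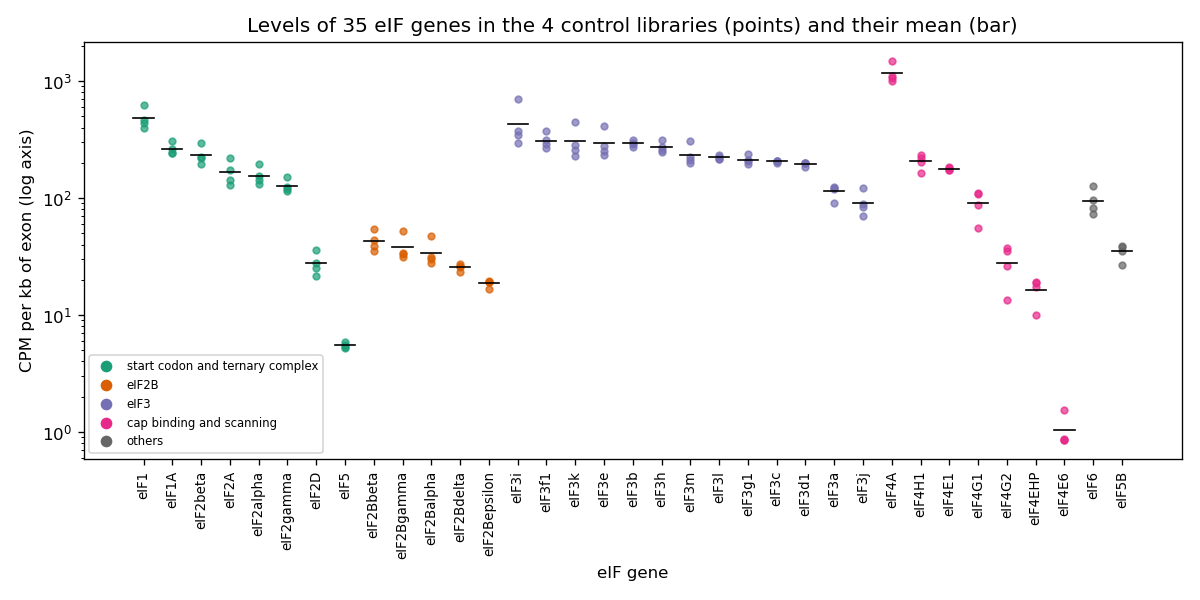
CPM per kb of exon (log axis) of the 35 initiation factor genes that passed the filter, in the 4 control libraries (points) with their mean (bar), ordered and coloured by role. eIF4A stands highest at a mean of 1162, eIF3 subunits lie between 90.9 and 431, eIF2B subunits between 18.6 and 43.2, and eIF4E6 lowest at 1.03.

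The eIF3 complex is the scaffold that binds the small ribosomal subunit. Its 13 genes that passed the filter lay between 90.9 (eIF3j) and 431 CPM per kb (eIF3i) in control. The loosely attached eIF3j was thus the lowest and the WD40 subunit eIF3i the highest. The paralogs eIF3d2, eIF3f2 and eIF3g2 held 6, 21 and 4 counts in all 16 libraries together, against 138700, 139393 and 74642 for eIF3d1, eIF3f1 and eIF3g1. At these counts the CNS reads of each pair belonged almost wholly to one paralog, although reads shared by near-identical copies may have been split or dropped.

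The ternary complex and its recycling factor differed in level. The 3 subunits of eIF2, the carrier of initiator tRNA, were at 155 ± 27.0 (eIF2alpha), 234 ± 43.2 (eIF2beta) and 127 ± 16.9 CPM per kb (eIF2gamma) in control. The 5 subunits of eIF2B were lower, at 18.6 ± 1.33 (eIF2Bepsilon, the catalytic subunit), 25.6 ± 1.71 (eIF2Bdelta), 34.0 ± 8.74 (eIF2Balpha), 37.8 ± 9.69 (eIF2Bgamma) and 43.2 ± 8.53 (eIF2Bbeta). The mean over the eIF2 subunits was 5.17 to 5.74 times the mean over the eIF2B subunits in the 16 libraries, and no eIF2 subunit reached as low as an eIF2B subunit in control. By genotype this ratio was 5.34 to 5.42 in control, 5.27 to 5.48 in TFAM overexpression, 5.63 to 5.74 with ATF4 RNAi and 5.17 to 5.38 in the libraries labelled ATF4 overexpression. The 4 libraries with ATF4 RNAi lay above the other 12, which was noticed after the values were seen and is given without a test.

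The levels of cap-binding proteins ranged widely. eIF4E1, the main cap-binding factor, was at 178 ± 4.57 CPM per kb in control, and eIF4EHP, a cap-binding protein that represses translation, at 16.2 ± 4.25. Before division by exon length they were at 398 ± 10.2 and 104 ± 27.3 CPM. The other eIF4E genes were near the limit of detection. eIF4E6 held 225 counts over the 16 libraries, eIF4E5 64, eIF4E3 56, eIF4E7 26 and eIF4E4 13, against 145762 for eIF4E1. eIF4E3, which is required in the male germline, had between 0 and 16 counts a library, and its highest value was in replicate 4 of TFAM overexpression with ATF4 RNAi. Testis markers were low throughout, with 4 of 7 under 1 CPM in every library. Of the scaffolds, eIF4G1 was at 90.1 ± 25.6 and eIF4G2, known from spermatogenesis, at 27.9 ± 10.7 CPM per kb.

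A few members could not be read as single genes, a point noticed after their values were seen. Exons of 18 members overlapped exons of another gene, and in 4 of them by more than 10% of the exon length. The exons of eIF5, the GTPase activator of eIF2, were overlapped over 80.8% by CG46312 on the same strand, and CG46312 had 0 counts in every library. Reads that fall on more than 1 gene are not counted at default settings of featureCounts, so the 17.7 ± 0.972 CPM of eIF5 in control may be an undercount. This was not tested. eIF2gamma shared 15.98% of its exons with Su(var)3-9 on the same strand, eIF3h 16.8% with senju on the other strand, and eIF2alpha 12.6% with rngo on the other strand. eIF4B, a stimulator of the eIF4A helicase, held 6 counts over all 16 libraries. The gene lies on chromosome arm 3L from 27842669 to 27858271 in dm6, and whether reads there were mapped or counted was not tested.

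Before the genotypes were compared, the spread between replicates was examined, because it set what could be seen. Control replicate 3 was the highest control library in 23 and the lowest in 10 of the 35 genes (94.3%, against 84.4% of the 9212 genes tested in every comparison). TFAM overexpression replicate 2 was the highest of its genotype in 26 and the lowest in 5 (88.6%, against 80.9%). The side depended on the length of the gene. Of 16 members with exons under 1600 bases, control replicate 3 was above all other controls in 16, by a median of 0.56 on the log2 scale against their mean (0.22 to 1.07). Of 8 members with 3000 bases or more it was below all other controls in 7, with a median of -0.46 and a lowest value of -1.28 for eIF4G2. TFAM overexpression replicate 2 was above the other 3 libraries in 16 of 16 short and below them in 5 of 8 long members. These were also the libraries with the lowest slope of log2 CPM on log2 exon length over all genes, 0.261 and 0.492 against 0.533 to 0.825 in the other 14. The same direction with length was seen in both libraries. What made the libraries differ was not tested, and the median of the members without 1 or both of them is given beside each comparison.

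**Figure D2:**
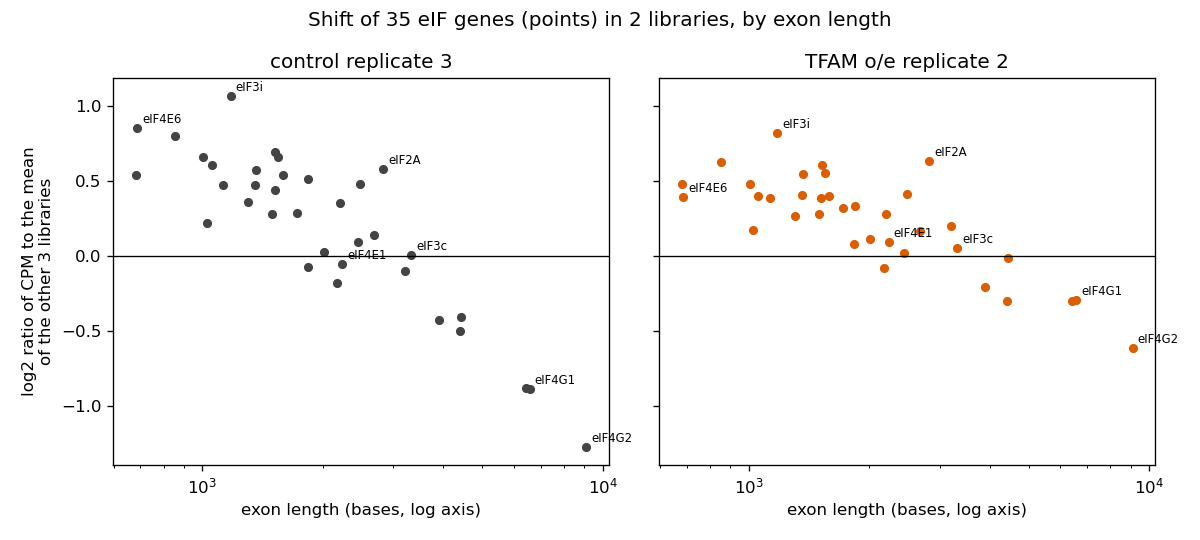
Log2 ratio of CPM in control replicate 3 (left) and TFAM overexpression replicate 2 (right) to the mean of the other 3 libraries of the genotype, against exon length in bases (log axis), for 35 initiation factor genes (points). The 16 genes under 1600 bases lie above 0 in both panels and most of those of 3000 bases or more lie below it, from 1.07 for eIF3i to -1.28 for eIF4G2 in control replicate 3.

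Some members were steady even so. The coefficient of variation of CPM over the 16 libraries was 2.93% for eIF3c, a core subunit of eIF3, and only 0.0543% of the 9212 genes had a lower one. It was 3.81% for eIF4E1, with 0.380% of genes lower, and 4.66% for eIF3l. eIF3c was at 665, 693, 688 and 694 CPM in control, 677, 708, 686 and 687 in TFAM overexpression, 674, 667, 702 and 706 with ATF4 RNAi and 668, 711, 649 and 645 in the libraries labelled ATF4 overexpression. The 4 genotypes overlapped and no library stood apart. With exons of 3321 and 2235 bases, eIF3c and eIF4E1 had log2 ratios of 0.01 and -0.05 in control replicate 3. At the other end, eIF3i varied by 34.0%. The median over the 35 members was 15.0%, against 16.8% over all 9212 genes and 14.2% over the 7054 with a mean of at least 10 CPM. Without the pair of libraries it was 8.93%, against 11.9% and 10.1%.

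The first comparison, of control with TFAM overexpression, asks what neuronal mitochondrial stress did to these mRNAs. To be called, a gene needed an adjusted p under 0.05 in edgeR's quasi-likelihood test, adjusted over all genes tested, and a change of 1.2-fold or more. By this rule 0 of the 35 members were called, where 0.299% of 9355 genes were. At an unadjusted p under 0.05 there was 1 member (eIF3m), against 4.34% of all genes. DESeq2 also gave 1 at that level and called 0, and its share of all genes was not worked out. In 0 members did the 8 libraries separate by genotype, against 3.46% of all genes. The median log2 fold change of the members was -0.08, against -0.01 over all genes, and 26 of 35 were under 0, against 51.8%. With each library left out in turn the median ran from -0.13 to 0.02. Without control replicate 3 the median was 0.02, against 0.01 over all genes, and 22 of 35 were above 0. Without both control replicate 3 and TFAM overexpression replicate 2 it was -0.04, against 0.01, and 24 of 35 were under 0. That alternative was added after seeing the data. With each library's slope on exon length as a covariate the median was 0.0002, against -0.004 over all genes. In that fit 17 members were under 0 and 18 above it.

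eIF3m had the largest fitted difference between control and TFAM overexpression. This subunit of eIF3 is also known in Drosophila as Tango7. It was at 319, 334, 488 and 356 CPM in control and 266, 352, 272 and 263 in TFAM overexpression. Only TFAM overexpression replicate 2 reached into the control range. The fitted log2 fold change was -0.39 ± 0.17 (SE; edgeR adjusted p = 0.880, over the alternatives 0.0264 to 1.000). It was -0.23 without control replicate 3 (adjusted p = 1.000) and -0.32 without both library 3 of control and library 2 of TFAM overexpression (adjusted p = 0.213, an alternative added after seeing the data). With each library's slope on exon length as a covariate, the adjusted p was 0.0264, and the log2 fold change of -0.26 stayed just short of the 1.2-fold threshold. In that fit 100 genes were called, against 28. The corresponding values for eIF3m were 286, 306, 318 and 396 CPM with ATF4 RNAi and 298, 325, 275 and 333 in the libraries labelled ATF4 overexpression.

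The eIF2 and eIF2B subunits overlapped between control and TFAM overexpression. eIF2alpha, the subunit that stress kinases phosphorylate, was at 201, 216, 294 and 233 CPM in control and 182, 268, 221 and 210 in TFAM overexpression. Its log2 fold change was -0.12, with a 95% interval of -0.48 to 0.25. eIF2beta was at 220, 247, 333 and 254 against 244, 323, 250 and 247 CPM, and eIF2gamma at 250, 261, 334 and 273 against 251, 308, 261 and 248. In both, control replicate 3 and TFAM overexpression replicate 2 were the highest libraries, and the log2 fold changes were -0.00 and -0.08. Among the eIF2B subunits the fitted values ran from -0.15 (eIF2Bgamma) to 0.18 (eIF2Bdelta). eIF2Bdelta was at 56.7, 55.9, 50.5 and 59.3 CPM in control and 58.3, 60.9, 66.2 and 68.8 in TFAM overexpression, with 1 TFAM library inside the control range (edgeR adjusted p = 0.880). The regulatory subunits eIF2Balpha and eIF2Bbeta were at 28.2, 30.2, 47.2 and 31.2 and at 47.9, 52.6, 74.4 and 59.8 CPM in control, against 27.5, 40.0, 29.8 and 28.8 and 45.9, 68.4, 55.4 and 53.2 in TFAM overexpression. Again the same pair of libraries was highest. Of the 13 eIF3 genes 12 had a fitted value under 0, with a median of -0.09.

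In the cap group, eIF4G2 had the largest fitted rise of all members. It was at 339, 318, 123 and 237 CPM in control and 314, 218, 335 and 352 in TFAM overexpression, with a log2 fold change of 0.25 ± 0.31. Its lowest value in each genotype was in the library with the low slope on exon length. eIF4E1 was at 404, 408, 387 and 391 CPM in control and 423, 430, 401 and 384 in TFAM overexpression. Its log2 fold change was 0.03, with an interval of -0.19 to 0.25. eIF4A was at 2483, 2645, 3661 and 2741 against 2373, 3158, 2467 and 2283 CPM. Its log2 fold change was -0.18 ± 0.17. eIF4EHP was at 120, 122, 63.9 and 111 CPM in control and 121, 88.8, 94.5 and 113 in TFAM overexpression (log2 fold change -0.01). Over the 35 members the median standard error was 0.16, and the 95% interval lay within 1.5-fold either way for 26 and within 2-fold for 34. Larger changes of those members were thus outside the intervals. How small a change could be seen differed by member, with standard errors from 0.10 to 0.31.

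**Figure D3:**
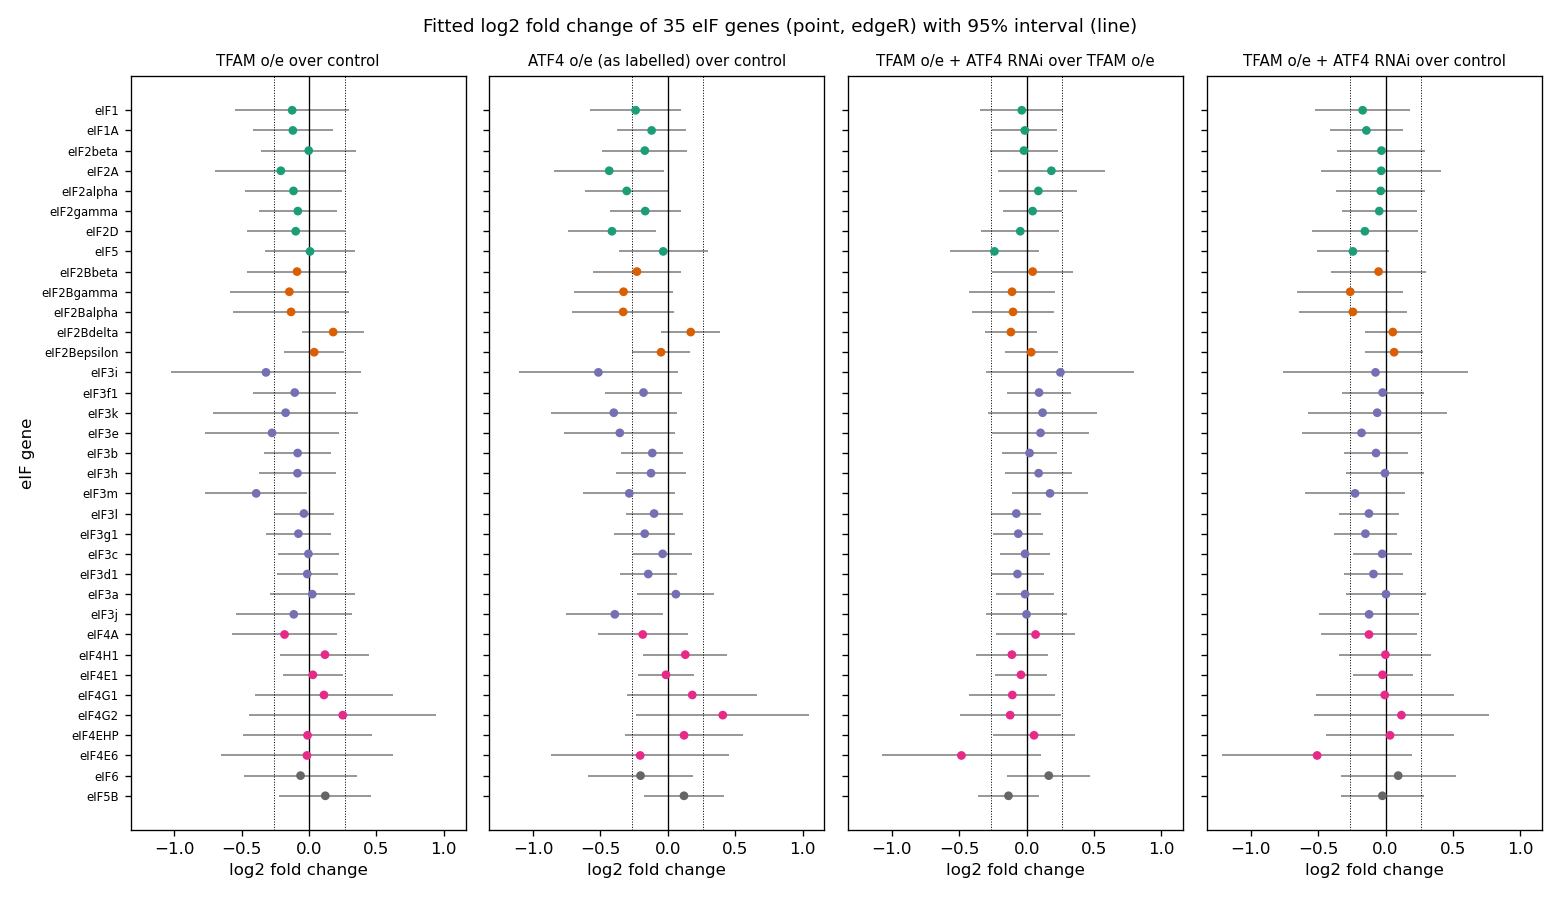
Fitted log2 fold change (point, edgeR) with its 95% interval (line) of 35 initiation factor genes, coloured by role, in the 4 comparisons. Solid lines mark 0 and dotted lines a 1.2-fold change. No gene was called in any panel, and the largest departures are eIF3i and eIF4E6 on the low side (-0.52 and -0.51) and eIF4G2 on the high side (0.41).

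The second comparison, of control with the libraries labelled ATF4 overexpression, again gave 0 of 35 members called, against 0.765% of 9410 genes. At an unadjusted p under 0.05 there were 3 (eIF2A, eIF2D and eIF3j), or 8.57% against 8.91% of all genes. DESeq2 gave 4 and called 0, and its share of all genes was not worked out. The genotypes separated for 0 members, against 6.93% of all genes. The median log2 fold change was -0.17, against -0.02 over all genes, and 28 of 35 members were under 0, against 53.5%. With each library left out in turn the median ran from -0.21 to -0.06. Without control replicate 3 it was -0.06, against 0.00 over all genes, with 29 of 35 under 0. With the slope covariate it was -0.05, also with 29 under 0. That edgeR fit had 6 members at an unadjusted p under 0.05, and the fit without control replicate 1 had 9. In both, 0 members were called, and the share of all genes was not worked out.

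Factors of start codon selection had 8 of 8 fitted values under 0, with a median of -0.21. The eIF2B subunits had 4 of 5, with a median of -0.23. Medians by role were not worked out under the alternatives, such as without control replicate 3. eIF2D, a factor of non-canonical initiation and of ribosome recycling, had the lowest adjusted p and was picked out for it after the values were seen. It was at 39.5, 46.8, 65.5 and 51.4 CPM in control and 37.3, 41.1, 35.6 and 38.8 in the libraries labelled ATF4 overexpression. Only the second of these latter libraries lay above the lowest control. The log2 fold change was -0.41 ± 0.15 (edgeR adjusted p = 0.418, over the alternatives 0.141 to 0.813). It lay between -0.51 and -0.22 over the alternatives and was -0.26 without control replicate 3. eIF2A, which can deliver initiator tRNA without eIF2 in other organisms, was at 363, 405, 626 and 488 CPM in control and 348, 403, 294 and 351 with the ATF4 transgene. Its log2 fold change was -0.44 ± 0.18 (edgeR adjusted p = 0.527) and lay between -0.54 and -0.21 over the alternatives. eIF2alpha, at 183, 214, 170 and 199 CPM with the ATF4 transgene, overlapped control by 1 library. Its log2 fold change was -0.31 ± 0.14 (edgeR adjusted p = 0.530) and lay between -0.37 and -0.14 over the alternatives. eIF2Bgamma, at 42.6, 50.2, 46.6 and 47.4 CPM with the ATF4 transgene, had a log2 fold change of -0.33 ± 0.16. That of eIF2Bepsilon, at 44.2, 48.2, 44.1 and 40.1 CPM, was -0.05 ± 0.09. Over the alternatives the former ran from -0.40 to -0.11 and the latter from -0.10 to -0.001. Neither gene was called.

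Of the eIF3 genes 12 of 13 were again under 0, and eIF3i had the lowest fitted value of all members. It was at 347, 405, 835 and 442 CPM in control and 328, 401, 307 and 388 in the libraries labelled ATF4 overexpression. Control replicate 3 stood far above the others, and the remaining 7 libraries overlapped between the genotypes. The log2 fold change was -0.52 ± 0.26 and lay between -0.66 and -0.09 over the alternatives. eIF4G2 and eIF4G1 had the largest fitted rises, 0.41 ± 0.28 and 0.18 ± 0.21. eIF4G1 was at 726, 706, 361 and 573 CPM in control and 689, 607, 745 and 648 with the ATF4 transgene, and eIF4G2 at 383, 288, 361 and 318 in the latter. Since control is shared, these signs are not independent of those in the first comparison. The median standard error was 0.14, with 21 intervals within 1.5-fold and 33 within 2-fold.

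The third comparison asks whether ATF4 knockdown altered the factors under TFAM overexpression. In it 0 of 35 members were called, against 0.551% of 9436 genes. The number at an unadjusted p under 0.05 was 0, against 5.81% of all genes. DESeq2 also gave 0 among these 35 and called none, and its share of all genes was not worked out. The genotypes separated for 0 members, against 4.15%. The median log2 fold change was -0.01, against 0.00 over all genes, with 20 of 35 under 0 against 49.7%. Without TFAM overexpression replicate 2 the median was 0.04 with 21 of 35 above 0. In that fit 6 members had an unadjusted p under 0.05 in edgeR, and with the slope covariate 2 did. In both, 0 members were called, and the share of all genes was not worked out. With each library left out in turn the median ran from -0.04 to 0.04.

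The largest fitted fall there was that of eIF4E6, the least abundant member tested. It held 16, 17, 16 and 15 counts in TFAM overexpression and 9, 10, 15 and 12 with ATF4 RNAi. In control it held 14, 13, 18 and 13 counts. With so few counts the interval of its log2 fold change of -0.48 ran from -1.08 to 0.11. eIF5 followed at -0.24 ± 0.15, with 21.8, 19.9, 14.3 and 15.8 CPM against 15.2, 16.8, 15.8 and 13.1. The largest fitted rises were those of eIF3i (0.25 ± 0.25) and eIF2A (0.18 ± 0.18). eIF3i was at 312, 611, 386 and 337 CPM in TFAM overexpression and 345, 447, 477 and 702 with ATF4 RNAi, and the genotypes overlapped over most of their range. eIF2A was at 339, 563, 378 and 368 against 382, 422, 488 and 590 CPM, also overlapping. The adjusted p of each of these 4 was 0.989. The highest eIF3i and eIF2A values with ATF4 RNAi were in replicate 4, whose slope on exon length was 0.533. It was the highest of its genotype in 20 and the lowest in 8 of the 35 members (80.0%, against 64.1% of all genes). Without it the median was -0.02 with 21 of 35 under 0. Intervals were narrowest in this comparison, with a median standard error of 0.13, 33 of 35 within 1.5-fold and 34 within 2-fold.

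**Figure D4:**
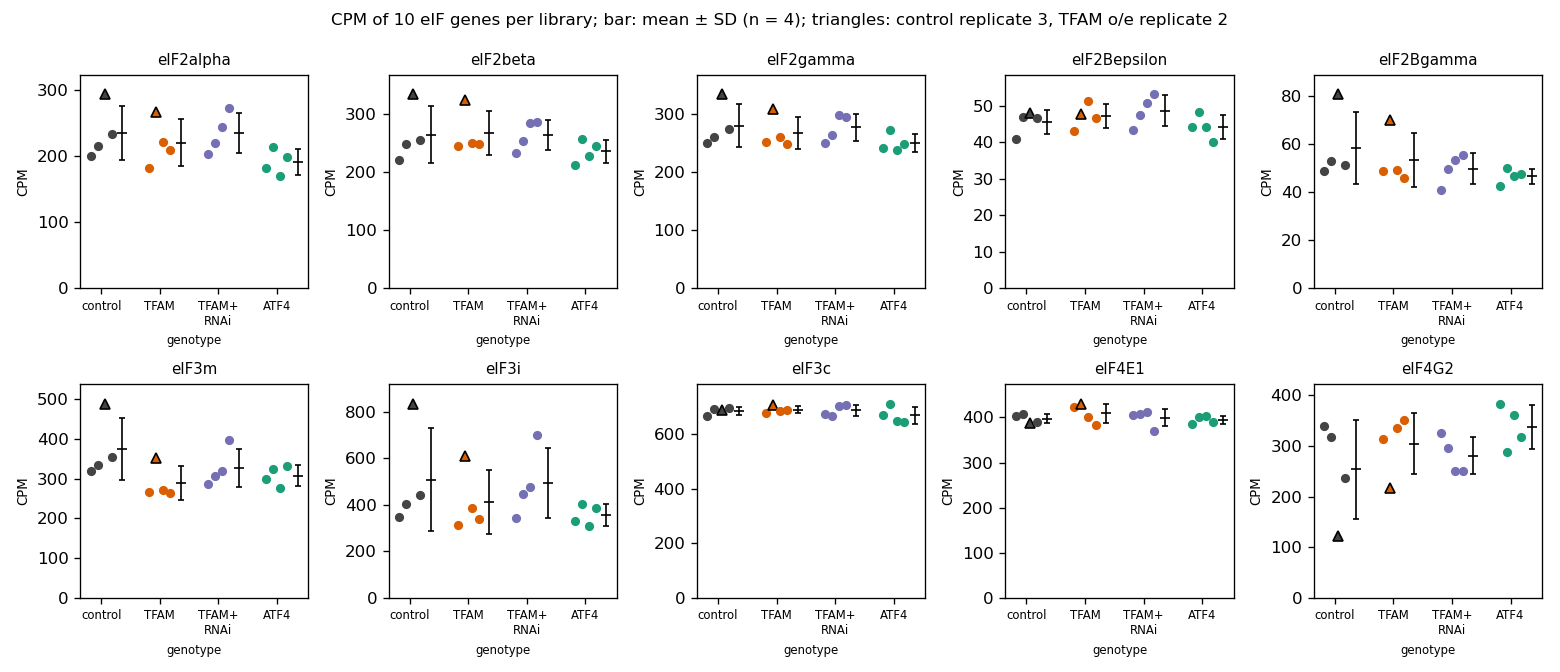
CPM of 10 initiation factor genes in each library, by genotype (TFAM, TFAM overexpression; TFAM+RNAi, with ATF4 RNAi; ATF4, libraries labelled ATF4 overexpression), with the mean ± SD (n = 4) beside the points. Triangles are control replicate 3 and TFAM overexpression replicate 2, which are high in short genes such as eIF3i (835 and 611 CPM) and low in eIF4G2 (123 and 218 CPM), while eIF3c and eIF4E1 are level across all libraries.

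The eIF2 and eIF2B subunits were close between TFAM overexpression with and without ATF4 RNAi. eIF2alpha was at 203, 221, 244 and 273 CPM with ATF4 RNAi, a log2 fold change of 0.09 with an interval of -0.20 to 0.38. eIF2Bepsilon was at 43.2, 47.9, 51.3 and 46.7 CPM in TFAM overexpression and 43.4, 47.5, 50.7 and 53.2 with ATF4 RNAi, a log2 fold change of 0.03 with an interval of -0.16 to 0.23. In control it was at 40.8, 47.1, 48.0 and 46.7 CPM. Fitted values of the other eIF2B subunits lay between -0.12 and 0.04. eIF4E1, at 406, 409, 413 and 371 CPM with ATF4 RNAi, gave -0.04 with an interval of -0.24 to 0.15.

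The last comparison set control against TFAM overexpression with ATF4 RNAi, and again 0 of 35 members were called, against 0.563% of 9421 genes. The number at an unadjusted p under 0.05 was 0, against 4.7% of all genes. DESeq2 gave 0 among these 35 and called none, and its share of all genes was not worked out. With the slope covariate, 7 of 35 members were at that level in edgeR and 0 were called. The share of all genes in that fit was not worked out. The genotypes separated for 0 members, against 3.59%. The median log2 fold change was -0.05, against -0.02 over all genes, and 29 of 35 were under 0, against 55.6%. With each library left out in turn the median ran from -0.11 to -0.01. Without control replicate 3 it was -0.01 with 19 under 0, and with the slope covariate -0.04 with 23 under 0. The largest fitted falls were those of eIF4E6 (-0.51 ± 0.31) and eIF2Bgamma (-0.26 ± 0.17). eIF2Bgamma was at 48.9, 52.8, 80.9 and 51.5 CPM in control and 40.8, 49.6, 53.5 and 55.6 with ATF4 RNAi, so that control replicate 3 alone lay above the other genotype. The largest fitted rises were 0.12 (eIF4G2) and 0.09 (eIF6, a factor of large subunit maturation). eIF4G2 was at 326, 295, 252 and 251 CPM with ATF4 RNAi, inside the control range. eIF6 was at 76.5, 87.5, 135 and 102 CPM in control and 93.8, 96.5, 111 and 136 with ATF4 RNAi, and the genotypes overlapped. The median standard error was 0.15, with 28 intervals within 1.5-fold and 34 within 2-fold.

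The share of all counts that fell on the 44 genes changed little, from 1.24 to 1.38% in control, 1.21 to 1.36% in TFAM overexpression, 1.23 to 1.32% with ATF4 RNAi and 1.205 to 1.28% in the libraries labelled ATF4 overexpression. The ranges of the 4 genotypes overlapped.

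Other genes of the pathway were read from 2 lists, regulators of initiation and factors of elongation and release. Of the 10 elongation and release factors tested, 0 were called in each of the 4 comparisons, with median log2 fold changes of -0.11, -0.11, 0.05 and -0.05 in the order above. Of 16 regulators tested, Thor was the only gene called, higher in the libraries labelled ATF4 overexpression than in control and lower with ATF4 RNAi than in TFAM overexpression alone. This holds for the fits as described, and crc was called under some alternatives. Against control, crc had a log2 fold change of -0.41 ± 0.10 with TFAM overexpression and ATF4 RNAi (edgeR adjusted p = 0.250), with no overlap, and it was called lower there by DESeq2 (adjusted p = 0.000573) and with the length slope covariate (adjusted p = 0.00476). The eIF2alpha kinases PEK and Gcn2, the phosphatase subunit PPP1R15 and the poly(A)-binding protein pAbp were called in none. PEK had the fitted log2 fold changes 0.17, -0.05, -0.12 and 0.04, and Gcn2 0.14, 0.15, -0.11 and 0.02.

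Thor was at 18.3, 6.42, 14.4 and 11.8 CPM in control and 44.8, 33.7, 32.3 and 28.5 in TFAM overexpression, with no overlap. It was at 7.30, 4.80, 6.56 and 10.8 CPM with ATF4 RNAi and at 40.4, 48.4, 47.5 and 45.2 in the libraries labelled ATF4 overexpression. The genotypes with ATF4 RNAi and control overlapped, and the other 2 lay above both. The log2 fold change against control was 1.82 ± 0.27 in the libraries labelled ATF4 overexpression (edgeR adjusted p = 0.0210), and this call was lost when any of those 4 libraries or control replicate 4 was left out (adjusted p of 0.0720 to 0.0847) and with the replicate block (adjusted p = 0.0911). With TFAM overexpression it was 1.43 ± 0.30 and not called (edgeR adjusted p = 0.154), although it was called by DESeq2 (adjusted p = 0.000458) and by edgeR with all 4 genotypes in one fit (adjusted p = 0.0137). With ATF4 RNAi added to TFAM overexpression it fell by 2.25 ± 0.23 (edgeR adjusted p = 0.00146).

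Thor mRNA was also set against the mRNA of its target. eIF4E1 lay between 166 and 193 CPM per kb in all 16 libraries. Thor was 4.66 to 13.4% of eIF4E1 per kb in control, 22.0 to 31.3% in TFAM overexpression, 3.47 to 8.59% with ATF4 RNAi and 31.1 to 35.7% in the libraries labelled ATF4 overexpression. The ranges of control and of ATF4 RNAi overlapped, as did, by a small margin, those of TFAM overexpression and the libraries labelled ATF4 overexpression. The mRNA ratio says nothing of the amount or phosphorylation of either protein.

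**Figure D5:**
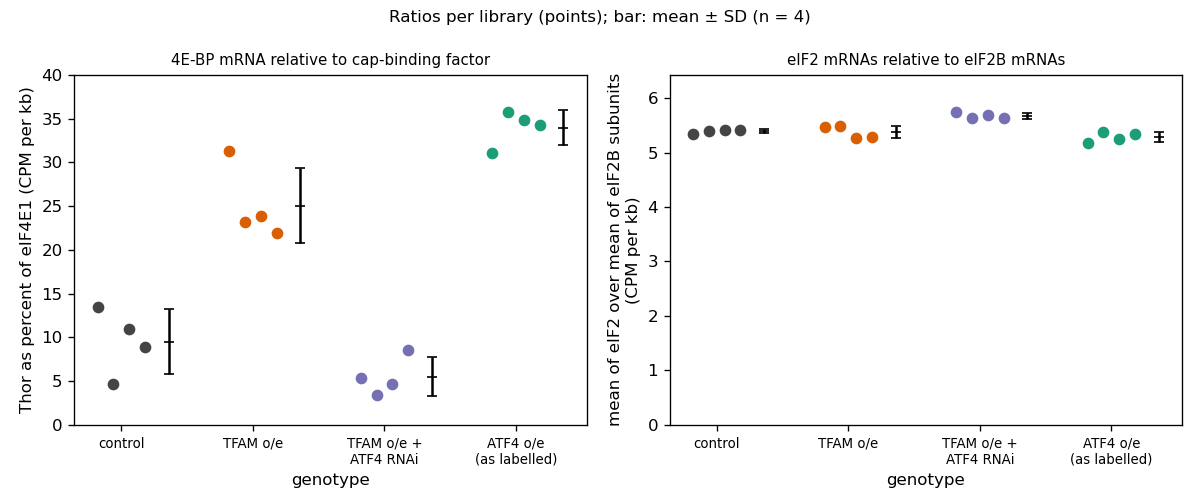
Left, Thor as a percent of eIF4E1 (both as CPM per kb) in each library by genotype; right, the mean CPM per kb of the 3 eIF2 subunits over that of the 5 eIF2B subunits; points are libraries and bars the mean ± SD (n = 4). Thor is at 22.0 to 35.7% of eIF4E1 in the genotypes with TFAM alone or the ATF4 transgene and lies at 3.47 to 13.4% in the other 2, while the eIF2 to eIF2B ratio stays between 5.17 and 5.74.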

How the data were processed

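RNA was collected from larval CNSs, and neither the labels nor the methods name a batch or say whether replicates were separate cultures of larvae beyond being separate samples, so p values measure the spread between these samples. The deposited values are raw counts per gene, without normalization. The authors mapped polyA reads to dm6 with Bowtie2 2.3.4.2 and counted them with featureCounts 1.6.3 at default settings in Galaxy; the gene annotation and strand setting are not given in the sources used here. Symbols, exon lengths and coordinates came from the Ensembl annotation of the same assembly, which matched 17559 genes by symbol. CPM used TMM factors over 16 libraries. Each comparison used its own 8 libraries and edgeR 4.0.16 in R 4.3.3 (filterByExpr, TMM, quasi-likelihood test), with Benjamini-Hochberg adjustment over all genes tested. Standard errors and 95% intervals came from the fold change and test statistic. The chi-square between replicates, per degree of freedom, was 9.22 to 397, far above sampling noise. This cannot show whether the replicates were separate cultures of larvae. Each library was counted as a separate sample, as labelled. The test was run on simulated data first. There it missed most genes changed 1.5-fold, and some of those changed 2-fold, in each comparison. A gene that was not called was thus not shown to be unchanged.

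Alternatives were DESeq2 1.42.0, its size factors in edgeR, no low-count filter, FPKM of at least 1, no fold threshold or 1.5, all genotypes in one fit, a replicate block, a length slope covariate and each library left out. The members, lists and rules were chosen with earlier results of these data known. Values by sample are given for the eIF2 and eIF2B subunits where a comparison turns on them. They are also given for the members with the 2 largest fitted rises and falls in each comparison, for the genotypes compared there. The most abundant eIF4E, eIF4G and eIF4A, and the paralogs eIF4EHP and eIF4E6 (as counts), are given by sample in some genotypes only. eIF4E3 is given as a total count and a range, and eIF4E4, eIF4E5 and eIF4E7 as total counts. The others are given by range. eIF5A and eIF4AIII carry other symbols in the annotation used and are not members. Of the lists, Tor and the ring gland markers phm and nvd had no match by symbol. No sequences are shown.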

Additional observations from a re-analysis of the deposited data

Results flagged for a closer look

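In 9 of the 140 member and genotype groups of 4 libraries, 1 library lay far from the other 3 by Dixon's test at 95%. Chance gives about 5% of groups, not far from this count, and the share over all genes was not worked out. Of the 9 groups, 3 were in control replicate 3 and 4 in TFAM overexpression replicate 2, the libraries with the lowest slope on exon length. In control replicate 3, eIF4E6 was at 1.062 CPM (others 0.584 to 0.592), eIF2Balpha at 47.25 (28.2 to 31.2) and eIF2Bgamma at 80.87 (48.9 to 52.8). In TFAM overexpression replicate 2, eIF2Bgamma was at 70.26 CPM (45.8 to 49.1), eIF3j at 152 (101 to 108), eIF3m at 352.4 (263 to 272) and eIF2beta at 323.3 (244 to 250). eIF3d1, with 2012 bases of exon, was low in control replicate 1 at 373.2 CPM (400 to 404). eIF4H1, an RNA-binding cofactor of eIF4A with 4430 bases, was high in replicate 3 of the libraries labelled ATF4 overexpression at 1094 CPM (958 to 976).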

How the results depend on the processing

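The count of initiation factors called was 0 in every comparison under every alternative. Counts over all genes moved. DESeq2 called 121, 208, 163 and 134 genes in the 4 comparisons in the order of the report, against 28, 72, 52 and 53. All genotypes in one fit gave 92 and 147 in the first 2 and 94 in the last. The length slope covariate gave 100, 174, 150 and 179. The labels share replicate numbers. Deviations of same-numbered libraries correlated above 0.1 for 2, 1, 1 and 3 of 4 numbers. Number 1 did so in all 4 comparisons (0.51, 0.56, 0.61 and 0.58), and what its libraries share was not tested. No other number did so throughout, and the numbers were not taken to pair libraries. The replicate block gave 9, 21, 21 and 36 genes. The pair of libraries with the lowest slopes on exon length left out together, an alternative added after seeing the data, gave 33 in the first comparison. Leaving out 1 library gave 17 to 26, 29 to 131 (131 without control replicate 3), 27 to 71 (71 without TFAM overexpression replicate 2) and 31 to 68. The cause of these differences was not tested. No called value changed sign. Of 76 pairs of a named member and a comparison, 39 changed sign under some alternative, and none of the 76 was called. The 9 members that failed the filter had at most 64 counts over all libraries and eIF4E6 had 225, so little can be said of them at this depth.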
